A study of Mus musculus with 3 samples.

Results

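Liver RNA from ICR mice exposed to trimethylamine (TMA) was set against liver RNA from untreated ICR mice, with 1 array in each group. TMA is a small volatile amine with a fishy smell, formed largely by gut bacteria from choline and carnitine. The 2 arrays of this comparison were 2 of 3 in the series, and each gene symbol was represented by its probe set with the highest mean over the 3 arrays, which gave 30921 genes. The TMA group received distilled water for 2 weeks and TMA for 24 h, and the no treatment group received neither according to the labels. The third array, EEC+TMA, held liver of mice given by mouth an ethanol extract (EEC) of Ecklonia cava, a brown seaweed, for 2 weeks before TMA. Mice entered at 8 weeks of age and livers were taken at 10 weeks. ICR mice are an outbred stock, so individuals differ in genotype. The sources used here give neither sex nor the dose and route of TMA, nor whether an array held RNA of 1 animal or of several. Treatment, water, animal and array therefore cannot be told apart, no test was possible, and "higher" and "lower" below describe 1 array against 1 array. A level "with TMA" or "with EEC+TMA" is the value on that array.

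The liver clears TMA by oxidising it to odourless TMA N-oxide with flavin-containing monooxygenases, microsomal enzymes encoded by the Fmo genes. Beside this reaction the hepatocyte makes glucose, bile acids and most plasma proteins, and it modifies foreign compounds through cytochrome P450 enzymes, glucuronosyltransferases and sulfotransferases.

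Values were log2 levels, so a difference of 1 is 2-fold. A gene was called measured when it reached the 95th percentile of 1541 probe sets of chemosensory receptor genes, which liver hardly uses. That level was 3.25 on the TMA array and 3.15 on the untreated array, and 15711 genes were measured on both. Albumin, Alb, was at 13.29 on the TMA array and 13.29 on the untreated array. The hepatocyte gene Cyp2e1, an ethanol-oxidising P450, was also near the top of the range, at 12.21 on the TMA array and 12.55 on the untreated array. In bulk RNA of this kind, fewer cells of a type and less RNA per cell cannot be told apart.

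Most genes lay close together on both arrays. Of the 15711 measured genes 2992, or 19%, were higher on the TMA array, 5907, or 37.6%, were lower, and 6812, or 43.4%, had identical values. These shares are the background for every count of higher and lower members below. At a mean level up to 4, 2748 of 4289 measured genes were identical, against 1285 of 3212 at 5 to 6 and 493 of 2046 at 6 to 7. Why values were identical was not tested, so identical values and medians of 0 are not a measure of agreement between the arrays. The central 95% of differences ran from -0.81 to 0.55. Of all 30921 genes, 307 were at least 2-fold apart, which is 0.993%. The lower side held 202 of them, or 0.653% of all genes, and the higher side 105, or 0.34%. At 1.5-fold 380 of all genes were higher (1.23%) and 1039 were lower (3.36%), and among measured genes the shares were 2.25% and 6.38%. The split at 2-fold depended on the scaling between arrays, because after quantile normalization 156 genes were higher and 119 lower. The deposited values placed 34.2% of the 2-fold genes on the higher side, and quantile normalization placed 56.7% there. All 105 genes on the higher side stayed at 2-fold under quantile normalization, and 119 of the 202 on the lower side did.

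The size and sign of the difference went with the level of the gene. Among protein-coding genes with a mean level of 4 to 5, 25.3% were lower on the TMA array and the median difference was 0. At a level of 6 to 7 the share was 67.9%, with a median of -0.14. At 8 to 9 it was 82.7%, with a median of -0.26, and at 10 to 11 it was 96.5%, or 110 of 114 genes. Above 11 the share was 83.7% and the median was -0.15. Since most liver function lists hold abundant genes, list medians are also given after a loess fit that removes the trend of difference on mean level.

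Spike-in and antigenomic control probe sets went the other way from the abundant genes, and the exon and ribosomal RNA control categories went the same way. Poly-A spike-ins are bacterial RNAs with a poly-A tail that are added to each RNA sample before labelling. Of their 39 probe sets, 38 were higher on the TMA array, none was lower, and 1 was identical. Their median level was 5.76 with TMA and 4.98 with EEC+TMA, against 4.95 on the untreated array. The median difference was 0.99, or 1.99-fold, with a range from 0 to 1.92. It was larger where the spike-in was bright, at 1.20 for the 14 probe sets at 6 or more on the untreated array against 0.54 for the 14 under 4. Between EEC+TMA and untreated arrays all 39 differed by a median of -0.07. The 14 at 6 or more on the untreated array differed by -0.26, and all 14 were lower with EEC+TMA. The brightest spike-in probe set read 9.39 with TMA and 7.72 with EEC+TMA, against 8.07 on the untreated array.

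Antigenomic probe sets, designed to match no sequence of the mouse genome, showed a similar offset. None of the 23 was lower on the TMA array and 12 were higher. The 11 of them above background were higher by 0.18 to 0.98, with a median of 0.82. Hybridisation spike-ins of the bac series, which are added after labelling, were higher by a median of 0.44. Exon probe sets of the normalization control genes were lower by a median of 0.37, at 6.07 on the TMA array and 6.43 on the untreated array. Of the 15711 measured genes only 102, or 0.649%, were higher by as much as the poly-A median. The part of this offset in the gene differences below was not tested.

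**Figure D1:**
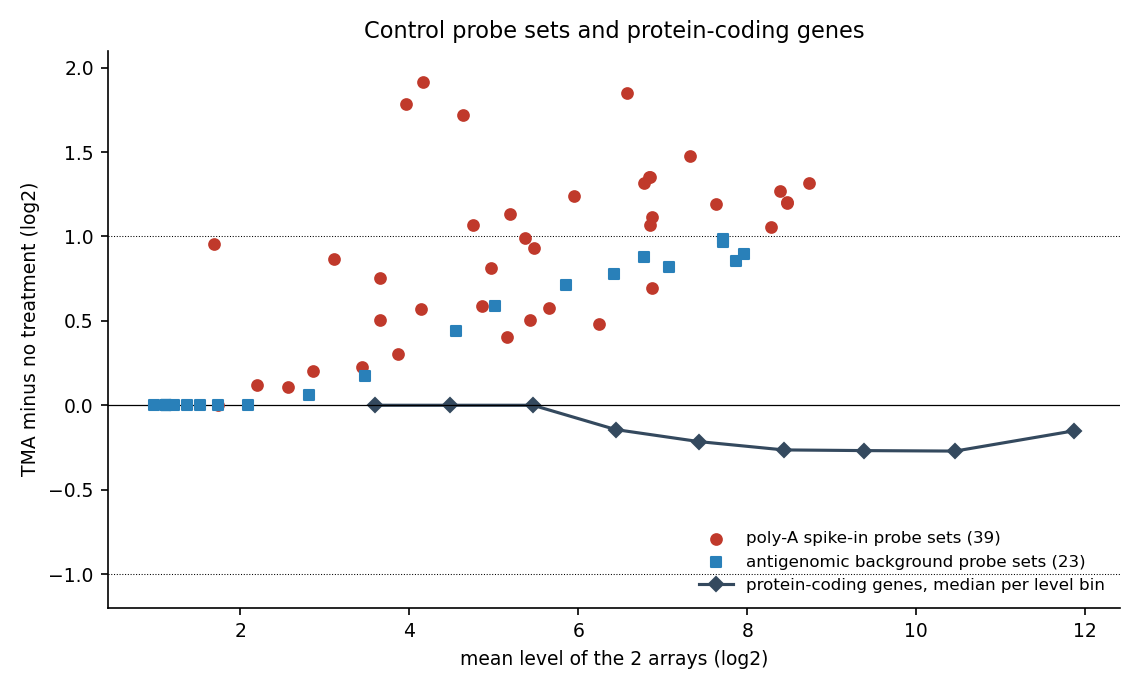
Difference between TMA and no treatment (log2) against the mean level of the 2 arrays, for 39 poly-A spike-in probe sets, 23 antigenomic probe sets and the median of protein-coding genes in each level bin. Antigenomic probe sets reach 0.98 and poly-A spike-ins reach 1.92, whereas the gene medians lie between -0.27 and 0, and dotted lines mark 2-fold.

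The genes that handle TMA itself showed small differences. Among the 20 genes of TMA oxidation and methylamine handling, 19 were measured, 14 were lower on the TMA array, 3 were higher and 2 were identical, and none was 2-fold apart. The median was -0.18 on the deposited scale, -0.04 after loess and 0.07 after quantile normalization. Fmo5, the most abundant of the Fmo genes here, was 9.62 with TMA and 10.03 with EEC+TMA, against 10.06 on the untreated array. Fmo1, an isoform of broad amine specificity, was 8.16 and 8.68 on the TMA and EEC+TMA arrays, against 8.59 on the untreated array. Both were thus lower on the TMA array than on either other array, by 1.36-fold for Fmo5 and 1.35-fold for Fmo1 against the untreated array. Fmo2, a lung-type enzyme in most mammals, was low, at 4.56 on the TMA array and 4.67 on the untreated array. Fmo4 read 5.03 on all arrays.

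The other methylamine genes differed by less than 0.6. Chpt1, which makes phosphatidylcholine from CDP-choline, was 6.52 on the TMA array and 7.10 on the untreated array. Dmgdh, the mitochondrial dimethylglycine dehydrogenase, was 8.91 on the TMA array and 9.48 on the untreated array. Pemt, which methylates phosphatidylethanolamine to phosphatidylcholine, was 7.84 on the TMA array and 8.26 on the untreated array. Bhmt, the betaine homocysteine methyltransferase, was higher by 0.31, at 4.14 on the TMA array and 3.84 on the untreated array, on a probe set of 8 probes. Taar5, an olfactory receptor known to respond to TMA, was below background at 2.85 on the TMA array and 2.79 on the untreated array.

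Cytochrome P450 genes held the largest difference on the higher side among protein-coding genes and several of the larger ones on the lower side. Of 101 genes of the Cyp family 65 were measured, 9 were higher on the TMA array, 47 were lower, 1 was at least 2-fold higher and 5 were at least 2-fold lower. At 2-fold, 1.21% of all measured genes were lower and 0.636% higher. The family median was -0.22, and -0.04 after loess. Cyp2b9, a P450 with female-biased expression in mouse liver, was 8.27 with TMA and 7.26 with EEC+TMA, against 6.24 on the untreated array. Cyp3a25, a drug-metabolising P450, had the largest difference of the family on the lower side. It was 6.52 on both the TMA and EEC+TMA arrays, against 8.41 on the untreated array, and so 3.72-fold lower with TMA. Cyp2d9, a male-biased steroid hydroxylase, was 8.37 with TMA and 9.76 with EEC+TMA, against 9.50 on the untreated array, and so 2.18-fold lower with TMA. Cyp46a1, the cholesterol 24-hydroxylase best known from neurons, was 2.72-fold lower, at 5.98 with TMA and 6.02 with EEC+TMA, against 7.42 on the untreated array. The EEC+TMA array thus lay with the TMA array for Cyp3a25 and Cyp46a1, with the untreated array for Cyp2d9 and between the 2 for Cyp2b9.

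Fatty acid hydroxylases of the Cyp4a cluster were lower too. Cyp4a32 was 3.59 with TMA and 5.22 with EEC+TMA, against 5.02 on the untreated array. Cyp4a12b, read by a probe set that the files mark as shared with other transcripts, was 7.25 with TMA and 8.40 with EEC+TMA, against 8.76 on the untreated array. Cyp4a14 differed by -0.58 and Cyp4a10, on a shared probe set, by -0.80. Cyp1a2, a target of the aryl hydrocarbon receptor, differed by -0.48 at 9.54 on the TMA array and 10.02 on the untreated array, and Cyp2b10, a target of the receptor CAR, by -0.22.

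Conjugation enzymes had one of the lower medians. Of the 18 measured genes of glucuronidation and sulfation 14 were lower on the TMA array, 1 was higher and 3 were identical, and the median was -0.43. After loess it was -0.22. Ugt2b5, a glucuronosyltransferase that adds glucuronic acid to steroids and drugs, was 8.35 with TMA and 9.32 with EEC+TMA, against 9.70 on the untreated array. Ugt2b36 was 9.13 on the TMA array and 10.11 on the untreated array. The next members, Ugt2b35, Ugt2b34 and Ugt2b1, differed by -0.68, -0.54 and -0.45. No measured Ugt gene was higher on the TMA array, 9 of 10 were lower, and the family median was -0.40. Sulfotransferases were mixed, with Sult1d1 at -0.68 and Sult2a8 at -0.54, while Sult1a1, Sult1b1 and Sult5a1 were identical on the 2 arrays.

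Antioxidant genes were spread around no difference, with 7 of 33 measured members higher on the TMA array, 17 lower and a median of -0.03. Hmox1, the inducible heme oxygenase, was 5.60 with TMA and 5.89 with EEC+TMA, against 5.10 on the untreated array. Sod1, the cytosolic superoxide dismutase, was 10.25 on the TMA array and 10.93 on the untreated array. Txnrd1, thioredoxin reductase, was 7.50 on the TMA array and 8.01 on the untreated array. No member was 2-fold apart.

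Genes of the insulin and fasting response included the largest difference of any list on the lower side, that of Igfbp1. Of its 28 genes, all measured, 23 were lower, 1 was higher and 4 were identical. The median was -0.25, and -0.13 after loess, and 3 members were at least 2-fold lower. Igfbp1, a secreted binding protein of insulin-like growth factors, was 5.03 with TMA and 5.62 with EEC+TMA, against 7.55 on the untreated array, a 5.73-fold difference. G6pc, the catalytic subunit of glucose-6-phosphatase and the last step of glucose release, was 9.67 with TMA and 10.10 with EEC+TMA, against 10.99 on the untreated array. Irs2, an adaptor of the insulin receptor, was 5.59 with TMA and 6.03 with EEC+TMA, against 6.89 on the untreated array. For these 3 genes both arrays of TMA-exposed mice lay below the untreated array. They were picked by their distance from that same array, so a high value there alone would place both below it. The same order held for Onecut1 and Cyp46a1 but not for Cyp4a32 and Ifitm2, so it was not particular to this list.

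Other members of this group were lower by less. Insr, the insulin receptor, was 7.38 on the TMA array and 8.32 on the untreated array. Sik1, a kinase induced by cyclic AMP, was 5.99 on the TMA array and 6.86 on the untreated array. Trib1, a pseudokinase that regulates lipogenic factors, was 5.33 on the TMA array and 6.18 on the untreated array. Slc2a2, the hepatocyte glucose transporter, differed by -0.78 and Igf1, the circulating growth factor, by -0.73. Pck1, the enzyme that commits oxaloacetate to glucose synthesis, was only 1.28-fold lower, at 10.19 on the TMA array and 10.55 on the untreated array. Foxo1, the forkhead factor that activates Igfbp1 and G6pc in fasting, differed by -0.09.

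The 3 members at least 2-fold lower are shown with the 300 bases of their RefSeq promoters (GRCm38.p6, 250 bases before to 50 after the annotated start), because each holds the forkhead element known from insulin response sequences. Capitals mark CAAAACA or its complement TGTTTTG. The windows lie at chr11:7197537-7197836 on the plus strand for Igfbp1, chr11:101367466-101367765 on the plus strand for G6pc and chr8:11008880-11009179 on the minus strand for Irs2.
Igfbp1: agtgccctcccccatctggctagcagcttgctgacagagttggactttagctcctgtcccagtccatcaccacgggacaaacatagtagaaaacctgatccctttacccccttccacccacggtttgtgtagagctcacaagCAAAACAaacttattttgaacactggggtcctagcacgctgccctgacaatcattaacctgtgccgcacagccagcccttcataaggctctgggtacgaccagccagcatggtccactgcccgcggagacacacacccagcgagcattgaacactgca
G6pc: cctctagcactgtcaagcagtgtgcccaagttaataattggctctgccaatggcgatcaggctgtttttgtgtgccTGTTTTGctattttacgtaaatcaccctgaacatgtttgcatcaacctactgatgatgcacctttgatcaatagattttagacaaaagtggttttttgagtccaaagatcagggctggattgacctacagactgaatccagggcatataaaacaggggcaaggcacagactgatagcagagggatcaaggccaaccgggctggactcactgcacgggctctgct
Irs2: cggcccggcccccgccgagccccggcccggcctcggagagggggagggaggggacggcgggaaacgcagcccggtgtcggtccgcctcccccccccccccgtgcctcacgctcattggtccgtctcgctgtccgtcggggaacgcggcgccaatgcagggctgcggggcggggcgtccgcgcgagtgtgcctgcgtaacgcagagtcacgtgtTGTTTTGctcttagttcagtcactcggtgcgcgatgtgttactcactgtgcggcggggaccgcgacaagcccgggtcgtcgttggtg
Of 32851 promoter windows of this length 2064, or 6.28%, held the element on either strand. Among the 21 genes of the insulin and fasting list with such a window, 4 held it, these 3 and Irs1. A match of 7 letters is a description of the window and says nothing of binding.

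Bile acid genes were lower as a group on the deposited scale. Of 29 measured genes 22 were lower on the TMA array, 1 was higher and 6 were identical, with a median of -0.39, and -0.15 after loess. The 2 members at 2-fold were canalicular pumps. Abcc2, which exports conjugated bilirubin and glutathione conjugates, was 8.72 with TMA and 9.53 with EEC+TMA, against 9.82 on the untreated array. Abcb4, which moves phosphatidylcholine into bile, was 8.00 with TMA and 9.19 with EEC+TMA, against 9.09 on the untreated array. Abcb11, the bile salt export pump, was 9.51 with TMA and 10.04 with EEC+TMA, against 10.37 on the untreated array. Cyp7a1, which starts the main route from cholesterol to bile acids, was 8.54 with TMA and 8.66 with EEC+TMA, against 9.40 on the untreated array. Nr1h4, the bile acid receptor FXR, differed by -0.70, and Atp8b1, a canalicular phospholipid flippase, by -0.72. Slco1a4, an organic anion carrier, was the one member above 0, at 0.21.

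Among solute carriers with symbols of the Slc-number-a form, 29 of 224 measured genes were higher on the TMA array, 109 were lower and 86 were identical, with a median of 0. None was 2-fold higher and 6 were 2-fold lower. The latter are 1.75% of the 342 such carriers on the arrays, against 0.653% of all genes. Slc22a30, an organic ion transporter of kidney and liver, differed by -2.27, at 4.48 with TMA and 5.35 with EEC+TMA, against 6.75 on the untreated array. Slc25a30, a mitochondrial carrier, was 5.82 with TMA and 6.13 with EEC+TMA, against 7.47 on the untreated array. Slc25a25, an ATP-Mg and phosphate carrier of mitochondria that is induced by fasting signals in liver, was 7.12 with TMA and 7.88 with EEC+TMA, against 8.63 on the untreated array. Slc38a2, a transporter of neutral amino acids, was 7.40 on the TMA array and 8.65 on the untreated array.

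**Figure D2:**
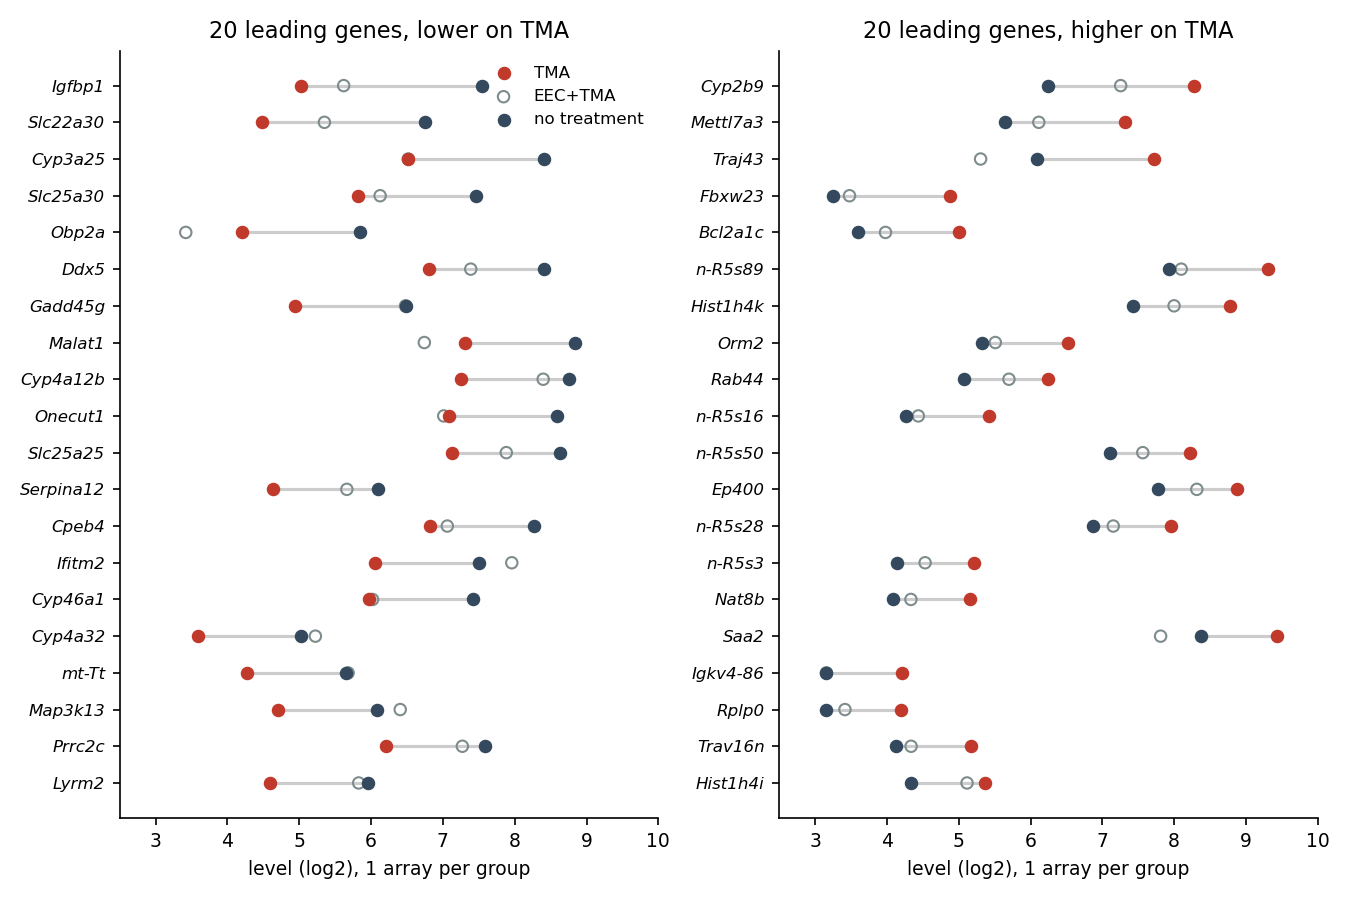
Levels (log2) of 20 genes with large differences in each direction among genes measured on both arrays, with 1 array per group. On the left TMA lies below no treatment, from Igfbp1 at the top, and on the right above it, from Cyp2b9. Open circles give the EEC+TMA array.

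The complement and coagulation list had a median of -0.23, with 31 of 35 measured genes lower on the TMA array, 4 identical and none higher, but the median after loess was 0.00. F5, coagulation factor V, was the only listed member at 2-fold, at 9.04 with TMA and 9.77 with EEC+TMA, against 10.09 on the untreated array. C6, a subunit of the membrane attack complex, was 8.73 on the TMA array and 9.54 on both other arrays. Masp1 and Klkb1, proteases of the lectin and contact pathways, differed by -0.71 and -0.63.

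Acute phase proteins were divided. Of 35 measured genes 13 were higher on the TMA array, 19 were lower and 3 were identical. The median was -0.05, and 0.18 after loess. Orm2, an orosomucoid, was 6.53 with TMA and 5.51 with EEC+TMA, against 5.33 on the untreated array. Saa2, serum amyloid A, was 9.44 with TMA and 7.81 with EEC+TMA, against 8.38 on the untreated array. Fgl1, a fibrinogen-like protein secreted by hepatocytes, was 9.12 with TMA and 8.02 with EEC+TMA, against 8.25 on the untreated array. On the other side stood Lbp, the lipopolysaccharide binding protein, at 7.92 on the TMA array and 8.83 on the untreated array, and Hamp, the iron hormone hepcidin, which differed by -0.80 on a shared probe set. Members of one response, Orm2 and Lbp, thus went opposite ways.

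Apolipoproteins and lipoprotein handling genes had a median of -0.31, and -0.06 after loess, with 18 of 22 lower on the TMA array and 1 higher. Apob, the structural protein of very low density lipoproteins, was 11.73 with TMA and 12.05 with EEC+TMA, against 12.50 on the untreated array. Abca1, which loads cholesterol onto apolipoprotein A-I, differed by -0.74. Pltp, the phospholipid transfer protein, was the higher one, by 0.39. Among serpins, plasma protease inhibitors, Serpina12 was 4.63 on the TMA array and 6.09 on the untreated array, and 14 of 27 measured members were lower.

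Genes of fatty acid oxidation had a median of -0.20 on the deposited scale, 0.02 after loess and 0.01 after quantile normalization, with 30 of 37 measured genes lower on the TMA array and 3 higher. Cpt1a, the gate of mitochondrial fatty acid uptake, differed by -0.42, at 8.64 on the TMA array and 9.06 on the untreated array. Hadha, of the trifunctional enzyme, differed by -0.44. Abcd2, a peroxisomal importer of long-chain acyl-CoA, was higher, at 5.50 with TMA and 3.77 with EEC+TMA, against 4.59 on the untreated array. Lipid synthesis genes had a median of -0.14 on the deposited scale, which turned to 0.05 after loess. Pnpla3, a lipid droplet protein induced by feeding, was 4.40 on the TMA array and 3.69 on both other arrays. Mlxipl, the carbohydrate response factor ChREBP, was 7.69 on the TMA array and 8.35 on the untreated array.

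Cholesterol synthesis and uptake genes did not form one direction. Their median was -0.10 on the deposited scale, 0.09 after loess and 0.14 after quantile normalization, so the sign turned with the scaling. Mvd, the mevalonate decarboxylase, was 6.67 on the TMA array and 6.22 on the untreated array, whereas Insig2, an anchor that retains the sterol sensor in the endoplasmic reticulum, was 8.30 on the TMA array and 8.88 on the untreated array. The sign also turned for the tricarboxylic acid cycle, with medians of -0.13 on the deposited scale, 0.02 after loess and 0.13 after quantile normalization, and for the urea cycle and amino acid catabolism, with -0.17, 0.07 and 0.03 in the same order. Kynu, a kynureninase of tryptophan breakdown, was the member furthest from 0 there, at 8.01 on the TMA array and 8.72 on the untreated array. Alas1, the first enzyme of heme synthesis, was 7.45 with TMA and 8.33 with EEC+TMA, against 8.55 on the untreated array.

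**Figure D3:**
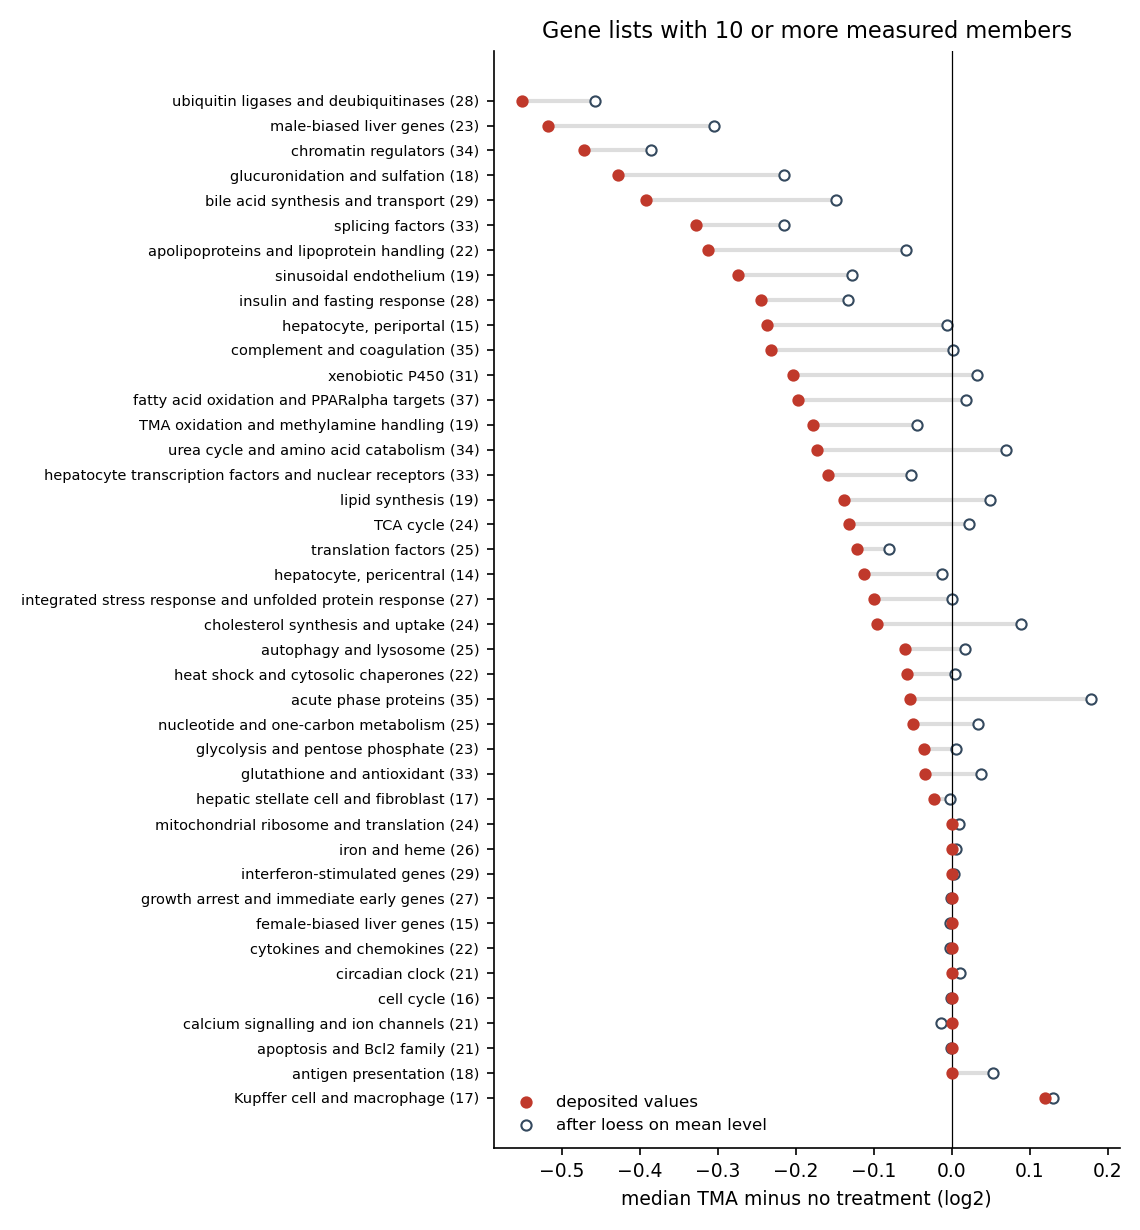
Median difference between TMA and no treatment (log2) of each gene list with 10 or more measured members, on the deposited scale (filled) and after loess on mean level (open), with the number of measured members in brackets. Ubiquitin ligases, male-biased genes and chromatin regulators keep the lowest medians under both, and complement, fatty acid oxidation and P450 lists come to about 0 after loess. The lists were chosen with earlier results of these data known.

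Male-biased liver genes, those higher in males than in females through the pulses of male growth hormone, kept a lower median under each scaling. It was -0.52 on the deposited scale, -0.31 after loess and -0.34 after quantile normalization, and 21 of 23 measured genes were lower, 2 identical and none higher. Obp2a, an odorant binding protein, was 4.21 with TMA and 3.42 with EEC+TMA, against 5.84 on the untreated array. Cyp4a12a, on a unique probe set, was 8.12 with TMA and 9.02 with EEC+TMA, against 9.07 on the untreated array. Mup20, the male pheromone darcin, was 11.39 with TMA and 12.06 with EEC+TMA, against 12.09 on the untreated array. The 16 measured major urinary protein genes were all lower on the TMA array, most by little, with a median of -0.07, and 0.30 after loess. Female-biased genes had a median of 0, with 4 of 15 measured members higher and 7 lower, so the female-biased Cyp2b9 and Abcd2 were not joined by the rest of that list. The sex of the animals is not given, and Y-linked transcripts were present on every array, with Uty at 5.01 with TMA, 4.56 with EEC+TMA and 6.28 on the untreated array. All 4 Y-linked genes of the list were lower on the TMA array, 2 of them at least 2-fold. Their median was -0.75, -0.69 after loess and -0.62 after quantile normalization. Chromosome Y as a whole did not go one way. Of its 23 measured genes 7 were higher, 6 lower and 10 identical, with a median of 0. The part of sex and of pooling in the male-biased and Y-linked medians was not tested.

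Liver transcription factors were lower in 22 of 33 measured cases, with a median of -0.16, and -0.05 after loess. Quantile normalization turned the median to 0.07. Onecut1, the hepatocyte factor HNF6, stood apart at 7.08 with TMA and 7.01 with EEC+TMA, against 8.59 on the untreated array, which is 2.85-fold lower with TMA. Its relative Onecut2 was 5.79 on the TMA and EEC+TMA arrays, against 6.29 on the untreated array. Foxa1 and Prox1, other factors of hepatocyte identity, differed by -0.69 and -0.77.

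Clock genes mostly had the same value on the 2 arrays, in 13 of 21 measured members. Bhlhe40, a repressor of the clock that responds to feeding, was the exception at 2-fold, with 7.53 with TMA and 8.14 with EEC+TMA, against 8.60 on the untreated array. Clock itself was 8.14 with TMA and 7.45 with EEC+TMA, against 8.93 on the untreated array. Npas2, a partner of the core clock, read 6.07 on both the TMA and untreated arrays.

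Immediate early and growth arrest genes had a median of 0, with 7 of 27 measured genes higher on the TMA array, 9 lower and 11 identical. Both members past 2-fold were lower. Gadd45g, a growth arrest gene induced by stress and cytokines, was 4.94 on the TMA array and 6.48 on both other arrays. Dusp1, a phosphatase of stress kinases, was 7.44 with TMA and 8.03 with EEC+TMA, against 8.55 on the untreated array. For the integrated stress and unfolded protein responses the median was -0.10 on the deposited scale and 0.00 after loess, and Atf4, their central activator, was 7.37 on the TMA array and 8.11 on the untreated array. For cytosolic chaperones it was -0.06, 0.00 after loess and 0.10 after quantile normalization, with no member at 2-fold. Cell cycle genes were low, with Cdk1, the mitotic kinase, differing by 0.17, and 11 of 16 measured members were identical on both arrays.

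Nuclear regulators gave some of the lowest medians, and these stayed below 0 after loess and after quantile normalization. Gene length moved with the same direction over all coding genes. The share lower on the TMA array was 26.6% for genes under 10 kb, 38.8% at 10 to 30 kb, 53.2% at 30 to 100 kb, 56.7% at 100 to 300 kb and 48.1% beyond that. It was 52.7% for coding genes read by over 30 probes. Lengths came from RefSeq for 12760 of 12915 coding genes. Loess on level takes no account of length, and the part of length in the medians of chromatin, ubiquitin and splicing genes was not tested. Of 34 measured chromatin regulators 26 were lower on the TMA array, 1 was higher and 7 were identical, with a median of -0.47, and -0.39 after loess. Kmt2c, a histone H3 lysine methyltransferase, was 4.54 with TMA and 5.06 with EEC+TMA, against 5.86 on the untreated array. Kmt2a, of the same enzyme family, was 4.02 with TMA and 4.88 with EEC+TMA, against 5.31 on the untreated array. Tet2, a DNA demethylation enzyme, was 4.01 on the TMA array, against 5.28 on the untreated array, and below background with EEC+TMA. Crebbp and Kdm6a, an acetyltransferase and a histone demethylase, differed by -1.05 and -1.01. The exception, Ep400, rested on the choice of probe set. Its brightest one covered 133 bases and differed by 1.09, while the one across the gene differed by -0.59.

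Ubiquitin ligases and deubiquitinases had the lowest median of all lists with 10 or more measured members, at -0.55, and -0.46 after loess. The lists were chosen with earlier results of these data known, so this rank only describes them. Of 28 members 26 were lower on the TMA array, 2 were identical and none was higher. Usp34, a large deubiquitinase, was 5.47 with TMA and 4.73 with EEC+TMA, against 6.55 on the untreated array. The Usp family of deubiquitinases, taken whole by symbol, lay closer to no difference. Of its 42 measured genes 30 were lower on the TMA array, 4 were higher and 8 were identical. The family median was -0.21, -0.17 after loess and -0.10 after quantile normalization. Proteasome subunits had a family median of -0.06, 0.00 after loess and 0.09 after quantile normalization.

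Splicing factors followed, with 29 of 33 measured genes lower on the TMA array, 4 identical and none higher, and medians of -0.33 and, after loess, -0.22. Luc7l2, a component of the U1 particle, was 5.35 on the TMA and EEC+TMA arrays, against 6.31 on the untreated array. Sf3b1, which recognises the branch point, was 6.78 on the TMA array and 7.55 on the untreated array. Ddx5, an RNA helicase, was lower by 1.60 on its brightest probe set, which covers 101 bases, and by 0.52 on the one that spans the gene. Malat1, a long RNA kept in the nucleus, was 7.31 with TMA and 6.74 with EEC+TMA, against 8.84 on the untreated array. It was not joined by the rest of the nuclear-retained RNA list. Of the 8 measured there 2 were higher, 3 lower and 3 identical, with a median of 0, and -0.10 after loess. Translation factors had a median of -0.12, and 0.01 after quantile normalization, with 15 of 25 lower and 1 higher on the TMA array. Eif4ebp3, a repressor of cap-dependent translation, was 4.06 with TMA and 5.62 with EEC+TMA, against 5.26 on the untreated array.

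Transcripts of the mitochondrial genome differed by kind. Of all 29 measured on chromosome M 12 were higher on the TMA array, 16 were lower and 1 was identical, with a median of -0.08. Its 9 protein-coding genes were higher in 6 cases, lower in 2 and identical in 1, with a median of 0.00 and a range from -0.59 for ND3 to 0.34 for ND6, both subunits of complex I. Both ribosomal RNA genes were slightly higher, mt-Rnr1 by 0.06 and mt-Rnr2 by 0.18. The 18 transfer RNA genes were lower in 14 cases and higher in 4, with a median of -0.73. Among them 7 of 18 were at least 2-fold lower and none was 2-fold higher, against 1.21% and 0.636% of all measured genes. The threonine transfer RNA mt-Tt was 4.27 with TMA and 5.68 with EEC+TMA, against 5.65 on the untreated array. The lysine one, mt-Tk, was 7.35 with TMA and 8.31 with EEC+TMA, against 8.67 on the untreated array. The arginine one, mt-Tr, was 8.00 on the TMA array and 9.28 on the untreated array. In the opposite direction the glycine one, mt-Tg, was 11.23 on the TMA array and 10.37 on the untreated array. Nuclear genes of the respiratory chain had a median of -0.17, -0.06 after loess and 0.01 after quantile normalization, and none of the 72 measured was 2-fold apart.

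The higher side of the comparison was made mostly of small non-coding RNAs. Of 19641 protein-coding genes 13 were at least 2-fold higher on the TMA array and 135 were at least 2-fold lower. For small nucleolar RNAs (snoRNAs) and their Cajal body relatives, guides of RNA modification, the counts were 49 higher and 10 lower among 1214. For small nuclear RNAs they were 17 and 4 among 1074, and for ribosomal RNA genes, mostly 5S copies, 7 and 0 among 276. Of the 63 measured ribosomal RNA genes 52 were higher and 2 were lower, with a median of 0.43. A separate control category of 25 ribosomal RNA probe sets went the other way, with 8 higher, 16 lower and a median of -0.49, at median levels of 8.76 on the TMA array and 9.25 on the untreated array. Receptor genes of smell and taste, which serve as background, held 4 higher and 0 lower at 2-fold among 1522, and antigen receptor segments 3 and 0 among 398. Of all genes 0.34% were 2-fold higher and 0.653% lower, or 0.993% in either direction. The shares in either direction were 4.86% for snoRNAs, 1.96% for small nuclear RNAs and 2.54% for ribosomal RNA genes. For the receptor genes of smell and taste it was 0.263%, below the share of all genes that were higher. The number of probes moved with the size of the difference in both directions. Of 992 measured genes read by 10 probes or fewer 50 were 2-fold higher and 40 were 2-fold lower, against 13 and 80 of 8970 read by 21 to 30 probes. Among coding genes with 10 probes or fewer 4 were 2-fold higher and 14 lower. The part of probe number and of the control offset in these counts was not tested.

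**Figure D4:**
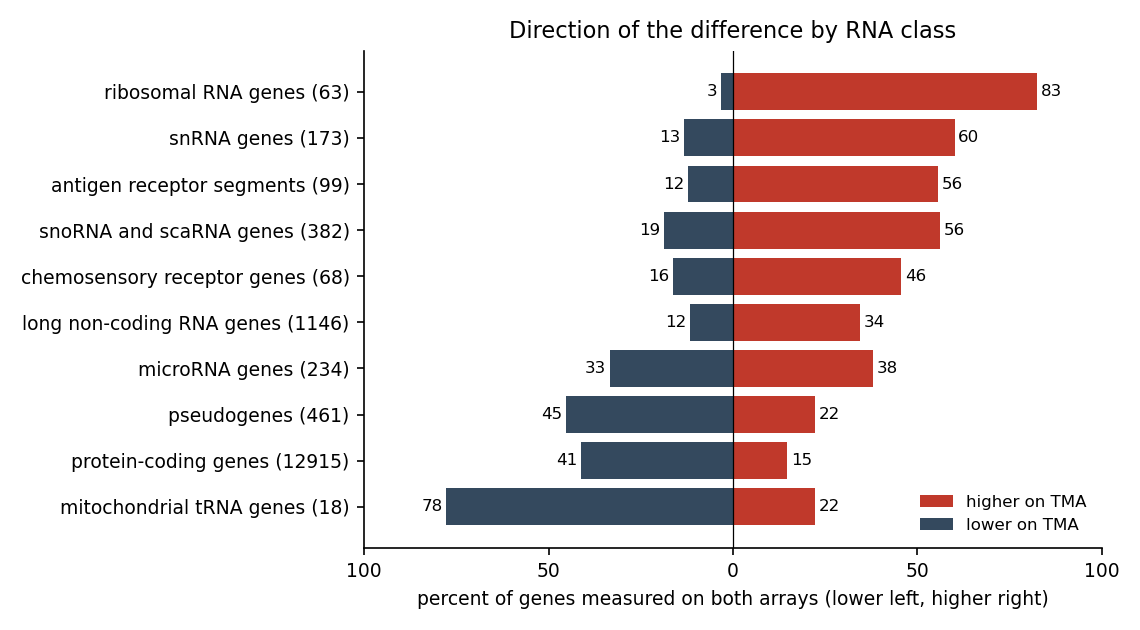
Percent of genes measured on both arrays that were higher (right, red) or lower (left, dark) with TMA, by RNA class, with the number of measured genes in brackets. Ribosomal RNA, small nuclear and snoRNA genes lie mostly on the higher side, at 83, 60 and 56 percent, mitochondrial transfer RNA genes mostly on the lower side, at 78 percent, and protein-coding genes more often on the lower side than on the higher, at 41 against 15 percent, with the rest identical.

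Within the named snoRNA family 80 of 109 measured genes were higher on the TMA array, 17 were lower and 12 were identical. The median was 0.42, and 0.65 after loess. The whole class of snoRNA and Cajal body RNA genes, with predicted loci, lay closer to no difference. Of its 382 measured genes 214 were higher, 71 lower and 97 identical, with a median of 0.10, and 0.20 after loess. Snord38a, on chromosome 4, was 9.08 with TMA and 8.57 with EEC+TMA, against 6.71 on the untreated array. Snord37, on chromosome 10, was 7.92 with TMA and 6.84 with EEC+TMA, against 5.60 on the untreated array. Snora16a, one of the brightest, was 12.31 with TMA and 11.04 with EEC+TMA, against 10.66 on the untreated array. Rnu3a, the U3 RNA that works in ribosomal RNA cutting, was 6.99 with TMA and 5.64 with EEC+TMA, against 5.39 on the untreated array. For all 4 the EEC+TMA array lay between the other 2.

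Most vertebrate snoRNAs are cut from introns of host transcripts, so the coding genes that hold them were compared. By the files' coordinates 152 measured snoRNA genes lay inside a measured protein-coding gene on the same strand, and 99 of these snoRNAs were higher on the TMA array, 30 lower and 23 identical. The 117 coding genes that held them were read by their widest probe set, and 17 were higher, 67 lower and 33 identical, with a median of -0.11. The snoRNAs had a median of 0.29. Where a snoRNA was at least 2-fold higher, 1 of 25 holding genes was higher at all and 14 were lower. Snord37 was 4.99-fold higher with TMA while Eef2, the elongation factor gene around it, was 10.83 on the TMA array and 10.91 on the untreated array. Snora28 was 9.41 on the TMA array and 7.74 on the untreated array, and Eif5, the initiation factor gene around it, 8.24 on the TMA array and 8.73 on the untreated array. These pairs were named after their values were seen.

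**Figure D5:**
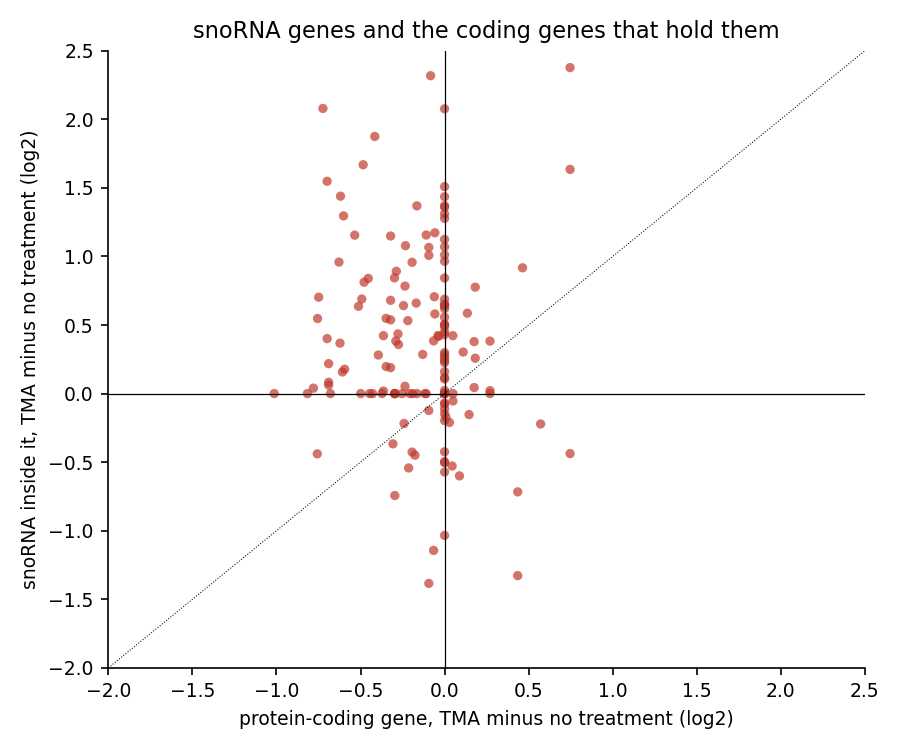
Difference between TMA and no treatment (log2) of each measured snoRNA gene (vertical) against that of the protein-coding gene around it, read by its widest probe set (horizontal), with 1 point per pair. Points gather above the dotted line of equal difference, and most snoRNAs with differences above 1 stand over coding genes at or below 0.

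Short probe sets also entered the gene list under a coding symbol. Whether each of them lies inside the gene of that symbol was not checked. The highest-mean rule picked a probe set shorter than 500 bases, although another of the symbol spanned at least 1000, for 24 coding genes measured both ways. On the short probe sets 10 were higher, 12 lower and 2 identical, and on the wide ones 5 were higher, 13 lower and 6 identical. Eif4a2, an initiation factor, differed by 0.76 on a window of 125 bases and by -0.09 across the gene. Rpl41, a ribosomal protein gene, did the opposite, at -0.71 on a short probe set placed on chromosome 14 and 0.67 on the wide one. Values for Ep400 and Ddx5 are given above.

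MicroRNA genes, read here through their precursors, differed at 2-fold mostly on the lower side, with 5 higher and 21 lower among 842. The share at 2-fold in either direction was 3.09%, against 0.993% of all genes. Many of the lower ones were read by probe sets marked as shared with other transcripts, among them Gm23813 at -3.51 and Gm25817 at -3.44. Others, such as Mir1948 at -2.59, were read by unique probe sets. Of 234 measured genes 89 were higher on the TMA array, 78 were lower and 67 were identical. Mir1938 was 4.40 with TMA and 4.46 with EEC+TMA, against 6.48 on the untreated array. Mir210, induced by hypoxia through HIF-1, was 5.37 with TMA and 4.85 with EEC+TMA, against 6.45 on the untreated array. Mir15a, of a cluster that restrains the cell cycle, was 3.39 on the TMA and EEC+TMA arrays, against 4.44 on the untreated array. Mir409, from the imprinted cluster on chromosome 12, was 4.63 on the TMA array and 3.56 on both other arrays. The mature sequences of these 4 genes, all read by probe sets marked as unique, are shown from RefSeq (GRCm38.p6) so that their seeds can be set side by side, with seed bases 2 to 8 in capitals. The array cannot tell the 2 arms of a precursor apart, and the 7 sequences carry 7 distinct seeds.
miR-1938: cGGUGGGAcuuguaguucgguc
miR-210-3p: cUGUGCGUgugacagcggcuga
miR-210-5p: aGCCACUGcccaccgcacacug
miR-15a-3p: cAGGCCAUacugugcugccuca
miR-15a-5p: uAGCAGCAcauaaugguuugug
miR-409-3p: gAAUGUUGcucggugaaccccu
miR-409-5p: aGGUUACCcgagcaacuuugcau

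Cell type markers did not differ in one direction. Kupffer cell and macrophage markers were higher in 11 of 17 cases and lower in 3, with a median of 0.12, and 0.13 after loess. Marco, a scavenger receptor, was 5.63 with TMA and 5.33 with EEC+TMA, against 5.12 on the untreated array. Cd5l, a secreted macrophage protein, was 6.73 with TMA and 6.90 with EEC+TMA, against 6.22 on the untreated array. Clec4f, the C-type lectin that defines Kupffer cells, was 6.62 with TMA and 7.01 with EEC+TMA, against 6.62 on the untreated array. All 5 measured B and plasma cell markers were higher, by 0.13 to 0.54, while 7 of 18 T and NK cell markers were measured and 5 of these were identical. For neutrophils only Csf3r of 13 markers was above background, at 4.13 on the TMA array and 3.98 on the untreated array.

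Sinusoidal endothelial markers were the lower group. Of 19 measured genes 13 were lower on the TMA array, 6 were identical and none was higher, with a median of -0.27, and -0.13 after loess. After quantile normalization the median was -0.01. Ptprb, an endothelial receptor phosphatase, was 6.68 with TMA and 7.14 with EEC+TMA, against 7.92 on the untreated array. Kdr, the VEGF receptor, was 7.26 with TMA and 8.24 with EEC+TMA, against 8.19 on the untreated array. Dnase1l3 and Stab2, markers of the sinusoid proper, differed by -0.81 and -0.77. Stellate cell markers were lower in 9 of 17 cases and never higher, with a median of -0.02, and Reln was furthest from 0, at -0.72. Hepatocyte zone markers were mostly lower too on the deposited scale. The periportal list, lower in 12 of 15 cases, had a median of -0.24, -0.01 after loess and -0.09 after quantile normalization. The pericentral list, lower in 10 of 14 cases, had -0.11, -0.01 after loess and 0.06 after quantile normalization. The part of cell composition in any gene difference above was not tested.

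Interferon-stimulated genes had a median of 0, with 7 of 29 measured genes higher, 8 lower and 14 identical. Apol9a, an apolipoprotein L gene of this group, was 5.99 with TMA and 7.04 with EEC+TMA, against 5.35 on the untreated array. Among antigen presentation genes 7 of 18 were higher and 2 lower, and Cd74, the invariant chain, was 6.61 with TMA and 7.50 with EEC+TMA, against 6.29 on the untreated array. Among cytokine and chemokine genes Ccl9, at -0.46, was furthest from 0. Ifitm2, an antiviral membrane protein outside these lists, was 2.73-fold lower, at 6.05 with TMA and 7.96 with EEC+TMA, against 7.50 on the untreated array. T cell receptor segments, with 32 of 53 measured ones higher and 4 lower, were led by Traj43, at 7.72 with TMA and 5.30 with EEC+TMA, against 6.08 on the untreated array.

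Some genes were above background on 1 array alone. There were 328 such genes on the TMA array and 590 on the untreated array. With the dim array set at its background level, the largest on the untreated array was Mup-ps16, a major urinary protein pseudogene, at 5.31 on the untreated array and below background on the TMA array, and so at least 4.15-fold lower with TMA. Zfp125, a zinc finger gene, was at least 2.18-fold lower. The largest on the TMA array was Mnda, a nuclear antigen of myeloid cells, at least 1.85-fold higher. Sox2, a factor of stem cells, was at least 1.72-fold higher, at 3.93 on the TMA array, close to background.

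The authors' deposited table for this pair lists 198 probe sets at a fold of 2.5 or more, 71 higher and 127 lower with TMA. Of these 113 were above the background level on both arrays, 68 on 1 array and 17 on neither. In the authors' deposited table of KEGG maps, 1 of 62 maps had a false discovery rate under 0.05, retinol metabolism, at 7.72e-05. It rests on 5 genes, Cyp2b9 on the higher side and Cyp3a25, Cyp4a12b, Cyp4a32 and Ugt2b5 on the lower side. In the authors' deposited table of GO terms 19 of 1433 had an adjusted p under 0.05. Heme binding, at 0.00369, rests on Cyp2b9, Cyp3a25, Cyp46a1, Cyp4a12b and Cyp4a32. Those values come from genes ranked by fold between 2 arrays and carry no spread between animals.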

How the data were processed

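Each MoGene-2_0-st array read total RNA of frozen liver, with biotin-labelled sense cDNA per the labels' protocols. The authors deposited log2 levels of 41345 probe sets per array, of which 33793 belong to the main category. The sources used here do not name the background correction or normalization. For this pair the authors' deposited table also gives a signed fold, a score that is the ratio above 1 or minus its inverse, and its KEGG and GO tables give p-values, per the file headers. From these values, differences were taken as TMA minus no treatment in Python 3.11.15 with numpy 2.4.6 and pandas 2.3.3. Loess (span 0.3) came from statsmodels 0.14.6, and figures from matplotlib 3.10.9. For counts of 2-fold differences each array was first raised to its background level. List medians use members measured on both arrays. The 50 gene lists, 33 families and the genes were chosen with earlier results of these data known. Named genes were the 30 largest differences each way, leaving out predicted loci, microRNA, snoRNA and chemosensory symbols, the 10 largest each way on 1 array alone, in each list or family the 8 largest and any identical members, Fmo genes, Alb, Actb and Gapdh. The snoRNA, microRNA, coding gene pairs and Taar5 were named after their values were seen. Family patterns were tightened, and the choice of the widest probe set per symbol was added, after seeing the data. Some genes that meet this rule are not reported here. The computation was tested on simulated data with known differences. Array intensity, not read depth, limits precision, and 1 array a group gives no replicate error.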

Additional observations from a re-analysis of the deposited data

How the results depend on the processing

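The 307 genes at 2-fold became 1419 at 1.5-fold (380 higher and 1039 lower on the TMA array) and 53 at 3-fold (23 higher and 30 lower). Leaving out small RNA genes, antigen receptor segments and predicted loci gave 143, of which 16 were higher and 127 lower. Probe sets marked as unique alone gave 204, with 45 higher. Without a background level 172 genes were higher, and after quantile normalization 119 were lower. Lists with a median of -0.1 or less numbered 21 on the deposited scale, 8 after quantile normalization and 10 after loess. Families with such a median numbered 9, and 3, 4 and 4 after quantile normalization, after loess and without a background level. The tricarboxylic acid cycle median turned to 0.13 after quantile normalization. Ep400 turned to -0.59 and Rpl41 to 0.67 with the widest probe set of the symbol, an alternative added after seeing the data. Apart from the choice of probe set for these 2 genes, the cause of these shifts was not tested. The poly-A median was 0.99 on the deposited scale, 1.14 after quantile normalization and 1.01 after loess. No paired analysis was possible because each group has 1 array. Leaving out an array was likewise not possible. Identical values, most common near background but also found at middle levels, limit what small differences can show.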
